A study of Homo sapiens with 4 samples.

Results

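The 10 genes described here make, recycle or use glutathione: GCLC, GCLM and GSS, which encode the enzymes of its synthesis, GSR, which encodes the reductase that recycles it, and the transferase genes GSTP1, GSTO1, GSTK1, MGST1, MGST2 and MGST3. They were picked by symbol from a table of 26603 genes, and each symbol matched 1 row. The choice was made with the drug against control differences of these data in view, so the folds and adjusted p-values given for these 10 genes describe them and support nothing further. Messenger RNA was sequenced from PLC8024, a line of liver tumour cells, with 2 control libraries and 2 drug libraries. The labels give neither the drug, its dose nor its duration, and list no genotype or other agent for either group. Whether the 2 libraries of a group are separate cultures is not stated, so every p-value reflects the spread among these 4 libraries alone, which may be technical.

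Glutathione is a tripeptide of glutamate, cysteine and glycine and the main soluble thiol of liver cells. Glutamate-cysteine ligase, a catalytic subunit (GCLC) with a modifier subunit (GCLM), joins glutamate to cysteine in the step that usually limits the rate, and glutathione synthetase (GSS) adds glycine. Glutathione reductase (GSR) turns the oxidised disulfide back to the thiol with NADPH. Glutathione transferases couple the thiol to electrophiles so that they can be exported. GSTP1 and GSTO1 are cytosolic, GSTK1 is found in mitochondria and peroxisomes, and MGST1, MGST2 and MGST3 are membrane proteins of the MAPEG family. Several of these genes are textbook targets of the transcription factor NRF2, which binds antioxidant response elements and is held down by KEAP1.

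Antioxidant response elements were searched for because they are the regulatory sequence best known for this gene group. RefSeq promoter windows of GRCh38.p14, which run from 250 bases before a transcript start to 50 bases after it, were found for 7 of the 10 genes (9 windows, of which 3 belong to MGST1). The core TGACNNNGC, read on both strands, matched in 4 of these 9 windows, those of GSTP1, GCLM, GSTO1 and 1 of MGST1, and in 13.3% of all 35116 windows. The matches in GSTP1, GCLM and GSTO1 lie before the RefSeq start and are shown on the gene's own strand in 30 bases each, with the match in capitals:
GSTP1: ggccggcgccgTGACTCAGCactggggcgg
GCLM: ctacgatttctGCTTAGTCAttgtcttcca
GSTO1, first match: gggcggagggaTGACTGAGCatttataact
GSTO1, second match: gcgagatgcttTGACACAGCcccttaagat
The GSTP1 stretch is chr11:67583735-67583764 on the plus strand, 66 to 58 bases before the start for the match itself, and its first 7 capitals are also a match to the AP-1 motif TGANTCA, which 7.71% of all windows hold. The GCLM stretch is chr1:93909446-93909475 on the minus strand, with the motif on the opposite strand 34 to 26 bases before the start. The GSTO1 stretches are chr10:104254655-104254684 and chr10:104254720-104254749 on the plus strand. In GENCODE 29 the GSTP1 gene begins at chr11:67583595 and the GSTO1 gene at chr10:104235356, both upstream of the RefSeq starts used here. The matches of these 2 genes therefore lie within the annotated genes. The windows of GCLC, GSTK1 and MGST3 held no TGACNNNGC, which says only that these letters are not in those windows. The core of the xenobiotic response element bound by the aryl hydrocarbon receptor, GCGTG on either strand, overlapped none of these matches and was present in the windows of GCLC (3 matches), GCLM (2) and MGST3 (1), against 36.5% of all windows. CpG dinucleotides numbered 36 in the GSTP1 window, 41 in that of GCLM and 32 in that of GCLC. They numbered 22 in the MGST3 window, 19 in that of GSTO1, 17 in that of GSTK1 and 18, 19 and 4 in those of MGST1. Over all windows the median was 14 and the upper quartile 28.

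Levels are deposited FPKM, fragments scaled for exon length and library total, so genes can be compared within a library. Recovered reads totalled 28526098 in control 1, 38611635 in control 2, 40279560 in drug 1 and 38685856 in drug 2. Each of the 10 genes had between 1200 (MGST2, control 1) and 112046 (GSTP1, drug 1) reads per library. Of 10 markers of liver epithelial cells, 7 were at 1 FPKM or more in all 4 libraries. Their summed level was 710 to 718 FPKM in the control libraries against 417 to 439 FPKM in the drug libraries, most of it FGB. The list was mixed in direction. By the limma fit given below, FGB, ALB, APOA1, APOH and TF were called lower with drug. SERPINA1 was not called (group means 10.25 FPKM in control and 10.36 FPKM with drug). HNF4A was called higher, from 22.39 to 25.47 FPKM (limma adjusted p = 0.021). APOB, AFP and TTR were under 1 FPKM, TTR being listed at 0 in 3 libraries, and albumin (ALB) was at only 3.15 and 3.23 FPKM in the control libraries against 1.31 and 1.32 FPKM in the drug libraries. Of 5 fibroblast markers none reached 1 FPKM (summed 0.281 to 0.294 FPKM in the control libraries against 0.418 to 0.440 FPKM in the drug libraries). Of 3 endothelial markers PECAM1 alone did (summed 4.16 to 4.69 and 2.11 to 2.23 FPKM), VWF being listed at 0 in 3 libraries. Of 4 leukocyte markers LYZ alone was in the table, at 181 and 183 FPKM in the control libraries against 283 and 287 FPKM in the drug libraries. The part of these marker shifts in the results below was not tested, and in bulk RNA fewer cells of a type and less RNA per cell cannot be told apart.

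With drug, GSTP1 was at 2.05 times its control level, and the 3 synthesis genes were higher by 17.7% to 29.7%. The reductase gene GSR and the transferase genes GSTO1 and MGST2 differed by 3.51% to 4.50% between group means. The membrane transferase genes MGST1 and MGST3 had lower values in both drug libraries. In limma on log2(FPKM + 1) over 11227 genes with a group mean of at least 1 FPKM, 4 of the 10 genes were called higher at an adjusted p under 0.05 (GSTP1, GCLC, GCLM and GSS), where 7.78% of all tested genes were called higher. None was called lower, where 6.02% of all tested genes were. Both drug libraries lay above both control libraries for 6 of the 10 genes (40.3% of all tested genes) and below them for 2 (23.3%). The median log2 fold change was 0.10 over the 10 genes and 0.036 over all tested genes. The direction split of all calls depends on scaling: 56.4% of calls were higher with FPKM as deposited, and 39.3% with FPKM scaled by TMM factors, where the median over all genes was 0.0011.

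**Figure D1:**
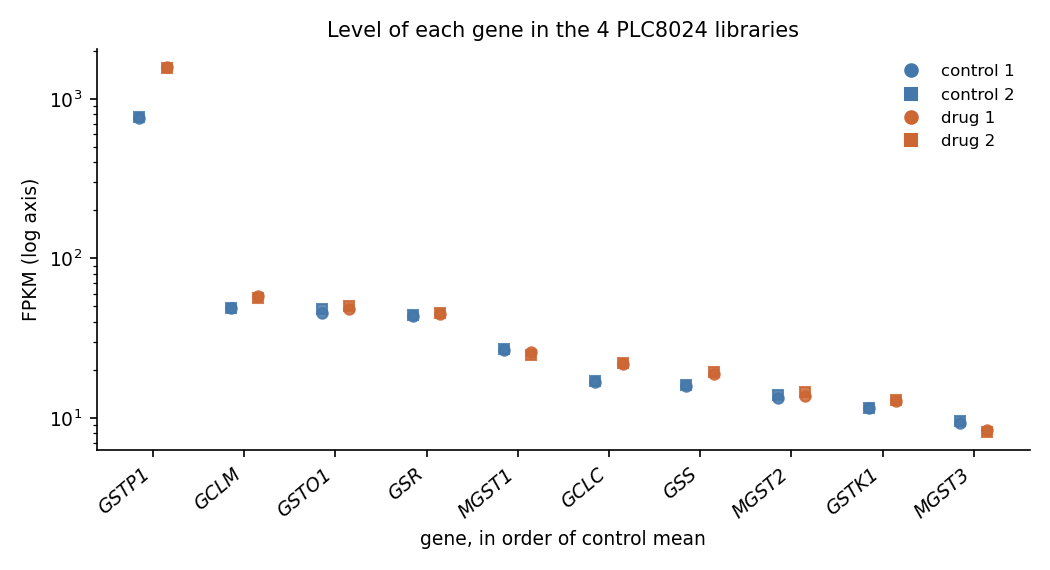
FPKM (log axis) of each gene in the 4 libraries, 1 point per library, with genes in order of their control mean. GSTP1 sits at 763 to 774 FPKM in the control libraries against 1574 to 1577 FPKM in the drug libraries, far above every other gene.

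GSTP1 encodes the pi-class transferase, which conjugates a wide range of electrophilic drugs and is commonly abundant in tumour cells although adult hepatocytes have little of it. The gene (ENSG00000084207) lies at chr11:67583595-67586656 in GRCh38, and no other GENCODE 29 gene overlaps it. It was at 763 FPKM in control 1, 774 FPKM in control 2, 1577 FPKM in drug 1 and 1574 FPKM in drug 2. Both drug libraries were far above both control libraries, and the libraries of a group lay close together. The log2 fold change was 1.03 ± 0.03 (SE, n = 2 libraries per group; limma adjusted p = 0.000523), with a 95% interval from 0.97 to 1.10. GSTP1 reads numbered 38383 and 52717 in the control libraries against 112046 and 107411 in the drug libraries. By FPKM the gene ranked number 27 of 26603 in both control libraries, and number 18 and 17 in drug 1 and drug 2. GSTP1 reads made up 0.136% ± 0.0014 of recovered gene reads in the control libraries against 0.278% ± 0.00037 in the drug libraries (SD, n = 2 each). The authors' deposited table gives a log2 fold change of 1.0022 and marks GSTP1 as up, the only one of the 10 genes so marked. The call held under each of the 11 alternatives tried, with log2 fold changes from 0.994 to 1.05 and limma, edgeR or DESeq2 adjusted p-values from 8.74e-276 to 0.0152.

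The synthesis genes came next in size. GCLC, the catalytic subunit gene (chr6:53497341-53616970), was at 16.7 and 17.1 FPKM in the control libraries against 21.92 and 21.97 FPKM in the drug libraries. Its 2 drug values nearly coincide, and both are clear of the controls. The log2 fold change was 0.36 ± 0.03 (SE; 95% interval 0.28 to 0.43; limma adjusted p = 0.00529). GCLC overlaps AL033397.1 on the same strand, with which reads could be shared. Its call held in all 11 alternatives, at adjusted p-values up to 0.0396.

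GCLM, the modifier subunit gene (chr1:93885205-93909456), was the second most abundant of the 10 genes. It was at 49.1 and 48.6 FPKM in the control libraries against 58.1 and 56.8 FPKM in the drug libraries. The groups do not overlap, and the group means are apart by more than either SD (48.8 ± 0.356 against 57.4 ± 0.897 FPKM). The log2 fold change was 0.23 ± 0.03 (SE; 95% interval 0.16 to 0.30; limma adjusted p = 0.0106). GSS, whose product adds glycine (chr20:34928433-34956027), was at 15.8 and 16.0 FPKM in the control libraries against 18.8 and 19.3 FPKM in the drug libraries. Here too the drug libraries are both above the controls. Its log2 fold change was 0.25 ± 0.03 (SE; 95% interval 0.16 to 0.33; limma adjusted p = 0.0136).

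The calls of the smaller changes depended on the number of libraries, while their log2 fold changes moved little. GCLM lost its call without control 1 (adjusted p = 0.0578), control 2 (0.0603) or drug 1 (0.0579) but not without drug 2 (0.0474). GSS was no longer called when any 1 library was dropped (0.0547 to 0.0758). The log2 fold changes of GCLM ran from 0.19 to 0.25 and those of GSS from 0.21 to 0.26 over all 11 alternatives. In the authors' deposited table the log2 fold changes were 0.3406 (GCLC), 0.2021 (GCLM) and 0.2257 (GSS), with adjusted p-values of 7.94e-16, 4.81e-07 and 2.91e-05.

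GSR, the reductase gene, was not called. It was at 43.5 and 43.9 FPKM in the control libraries against 45.0 and 45.8 FPKM in the drug libraries. Both drug values are above both controls by a small step, and the log2 fold change of 0.05 ± 0.03 (SE; 95% interval -0.01 to 0.12) did not pass (limma adjusted p = 0.218). With TMM-scaled FPKM it was 0.015. The upper end of the interval for GSR lies below the lower ends of those for GCLC, GCLM and GSS, although the difference between genes was not tested.

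**Figure D2:**
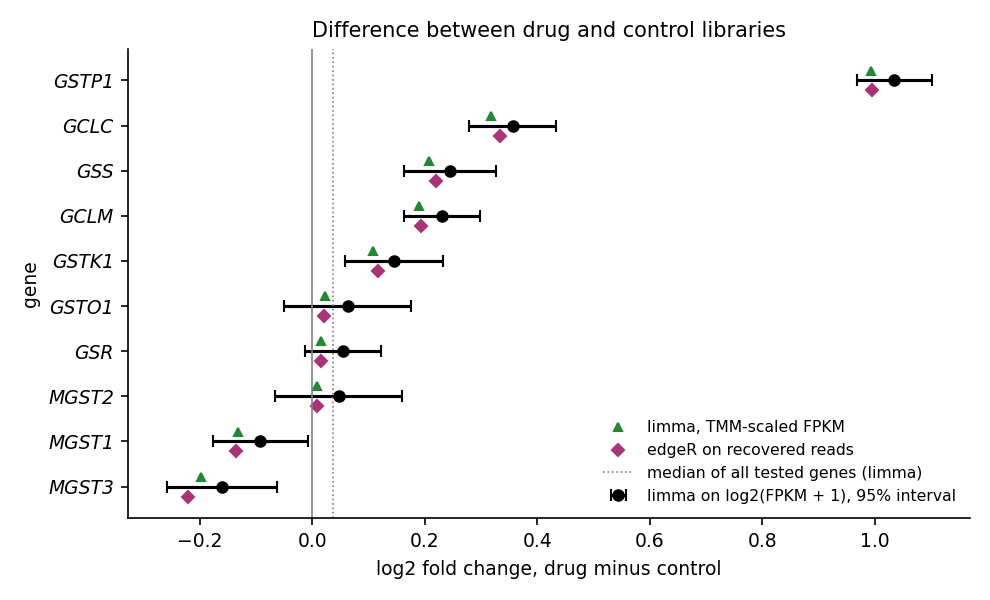
Log2 fold change of drug minus control for each gene, with circles and 95% intervals for limma on log2(FPKM + 1), triangles for TMM-scaled FPKM and diamonds for edgeR on recovered reads. GSTP1 stands at 1.03, the 3 synthesis genes between 0.23 and 0.36, and MGST1 and MGST3 below 0 by each of the 3 methods.

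Of the other soluble transferase genes, GSTO1 encodes an omega-class enzyme with thioltransferase and dehydroascorbate reductase activity. It was at 45.2 and 48.5 FPKM in the control libraries against 47.9 and 50 FPKM in the drug libraries. The groups overlap, since control 2 is above drug 1, and the log2 fold change was 0.06 ± 0.04 (SE; 95% interval -0.05 to 0.18; limma adjusted p = 0.376). GSTK1, the kappa-class gene, was at 11.6 and 11.5 FPKM in the control libraries against 12.7 and 13.0 FPKM in the drug libraries. Both drug libraries are above the controls, with a log2 fold change of 0.15 ± 0.03 (SE; 95% interval 0.06 to 0.23) that missed the threshold (limma adjusted p = 0.0520, range 0.0520 to 0.293 over the alternatives).

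Of the 3 membrane transferase genes none was called, MGST1 and MGST3 having the lower values with drug. MGST1 encodes the microsomal and outer mitochondrial enzyme, and was at 26.8 and 27.2 FPKM in the control libraries against 25.8 and 24.8 FPKM in the drug libraries. Both drug values are below both controls, and the log2 fold change of -0.09 ± 0.03 (SE; 95% interval -0.18 to -0.01) did not pass in limma (adjusted p = 0.126). MGST3 (chr1:165630861-165661796), the lowest of the 10 genes by FPKM, was at 9.28 and 9.51 FPKM in the control libraries against 8.42 and 8.17 FPKM in the drug libraries. The drug libraries are again the lower ones, with a log2 fold change of -0.16 ± 0.04 (SE; 95% interval -0.26 to -0.06; limma adjusted p = 0.0540). MGST2, whose product can make leukotriene C4, was at 13.3 and 14.0 FPKM in the control libraries against 13.8 and 14.5 FPKM in the drug libraries. Its groups overlap (log2 fold change 0.05 ± 0.04 SE; 95% interval -0.07 to 0.16; limma adjusted p = 0.505).

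The calls of MGST1 and MGST3 depend on the method. MGST3 passed as lower with TMM-scaled FPKM (limma adjusted p = 0.0386), with edgeR (0.00357) and with DESeq2 (0.00414) on recovered reads, within a range of 0.00357 to 0.194 over all 11 alternatives. MGST1 passed as lower with DESeq2 (0.0183) and not with edgeR (0.0505), within a range of 0.0183 to 0.389. Called higher were 4 of the 10 genes by each of these 3 methods, where 4.84% (TMM-scaled FPKM), 8.37% (edgeR) and 6.89% (DESeq2) of all tested genes were. Called lower were 1, 1 and 2 of them, where 7.46%, 11.0% and 9.88% of all tested genes were. The authors' deposited table gives log2 fold changes of -0.129 for MGST1 (adjusted p = 0.024608) and -0.2134 for MGST3 (0.0035187). By that table's adjusted p under 0.05, 4 of the 10 genes were higher and 2 lower, where 3.18% and 4.03% of its 26603 genes were. These 2 shares also count 15376 genes under 1 FPKM in both group means. The shares over tested genes leave those out, so the 2 kinds of share are not alike. MGST1 overlaps AC007552.1 and AC007552.2 on the same strand, with which reads could be shared.

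The order of the 10 genes by FPKM was the same in all 4 libraries: GSTP1, GCLM, GSTO1, GSR, MGST1, GCLC, GSS, MGST2, GSTK1 and MGST3. That order rests on the scaling for length. By recovered reads MGST3 (2131 to 2958 per library) was above MGST2 (1200 to 1775) and GSTK1 (1390 to 2154) in each library. Neighbours in the order by FPKM were at times close. GSTO1 at 45.2 to 48.5 FPKM and GSR at 43.5 to 43.9 FPKM in control libraries differed by less than 2 SD of GSTO1 (46.8 ± 2.33 against 43.7 ± 0.293 FPKM). GCLM and GSTO1, at 48.8 ± 0.356 and 46.8 ± 2.33 FPKM in control, were within 1 SD of GSTO1.

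Within a library, transcripts of the 6 transferase genes were mostly GSTP1. Its share of their summed FPKM was 87.8% and 87.5% in the control libraries against 93.6% and 93.4% in the drug libraries. The 5 other transferase genes summed to 106 and 111 FPKM in the control libraries against 108 and 110 FPKM in the drug libraries, so the groups overlap. The 3 membrane members summed to 49.3 and 50.7 FPKM in the control libraries against 48.0 and 47.4 FPKM in the drug libraries, the drug libraries being lower. The 3 synthesis genes summed to 81.6 and 81.7 FPKM in the control libraries against 98.8 and 98.1 FPKM in the drug libraries. FPKM of GCLM over GCLC was 2.93 and 2.83 in the control libraries against 2.65 and 2.59 in the drug libraries, so the modifier transcript outnumbered the catalytic one in each library and by less with drug. These sums, shares and ratios are given as values, with no test.

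**Figure D3:**
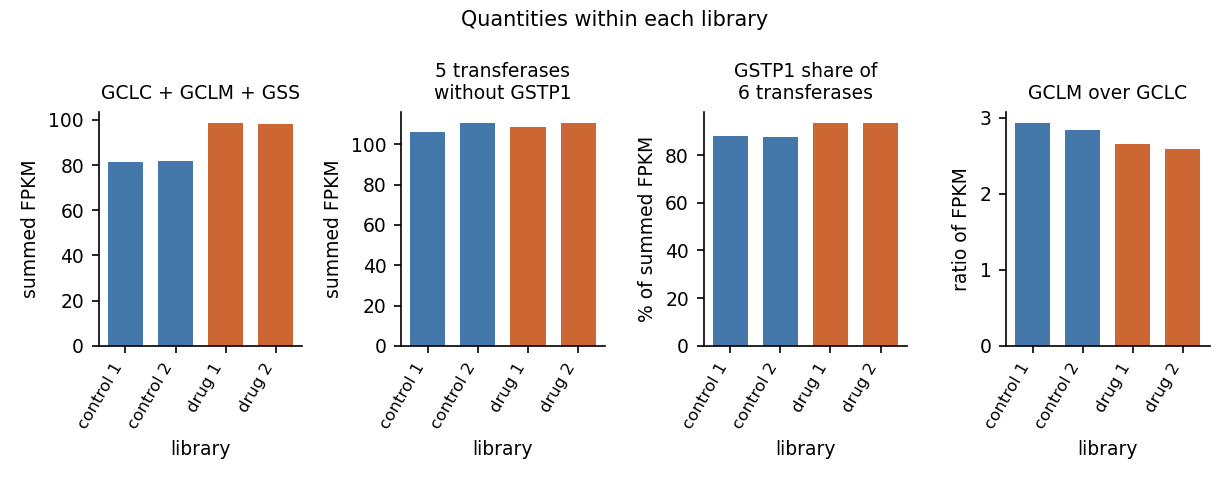
Bars give, for each library, the summed FPKM of GCLC, GCLM and GSS, the summed FPKM of the 5 transferase genes other than GSTP1, the share of GSTP1 in the 6 transferase genes and the ratio of GCLM to GCLC. The synthesis sum goes from 81.6 and 81.7 to 98.8 and 98.1 FPKM, while the sum without GSTP1 stays between 106 and 111 FPKM in the 4 libraries.

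Other genes of glutathione metabolism and of NRF2 control were read from 6 lists of 77 genes, none of them among the 10. Of these, 63 were in the table and 53 passed the filter on low values; 3 were called higher and 11 lower, which is 5.66% and 20.8% against 7.78% and 6.02% of all tested genes. The median log2 fold change of the 53 was -0.05. Like the 10 genes, the lists were chosen with earlier results of these data known. Their counts, shares and adjusted p-values, here and list by list below, therefore describe these genes and support nothing further. Dropping any 1 library left 1 gene called higher, the aminopeptidase gene ANPEP. Dropping control 1 or control 2 left 4 genes called lower, and dropping drug 1 or drug 2 left 6.

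Glutathione peroxidases reduce peroxides with glutathione. By limma 3 of 6 tested genes of this list were called lower, the peroxiredoxin gene PRDX6 among them, and none higher (median log2 fold change -0.19). DESeq2 called 1 of the 6, GPX1, higher. GPX2, the epithelial form, was at 126 and 128 FPKM in the control libraries against 78.2 and 74.0 FPKM in the drug libraries (limma adjusted p = 0.00143 for a log2 fold change of -0.73 ± 0.04 SE). GPX3, the secreted form, was at 21.5 and 21.3 FPKM in the control libraries against 15.9 and 16.2 FPKM in the drug libraries (limma adjusted p = 0.00421). The peroxiredoxin gene PRDX6, whose product uses glutathione as its reductant, fell from 158 ± 1.45 to 138 ± 1.58 FPKM (SD, n = 2) and was no longer called when any 1 library was dropped (limma adjusted p = 0.0122, up to 0.0714 in the alternatives). GPX4, which reduces lipid peroxides in membranes, did not pass (137 ± 2.28 and 134 ± 1.37 FPKM, adjusted p = 0.417). GPX1, on 194 to 362 reads per library, was at 4.75 and 3.74 FPKM in the control libraries against 5.81 and 6.53 FPKM in the drug libraries, and did not pass in limma (adjusted p = 0.0536). Both drug values of GPX1 are above both controls, with a log2 fold change of 0.46 ± 0.11 (SE), and the gene passed as higher with DESeq2 (adjusted p = 0.0427, range 0.0427 to 0.184 over the alternatives). GPX1 and GPX4 are named here after their values were seen.

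Among other transferase and MAPEG genes 1 of 7 tested was called lower and none higher (median -0.11). That gene was GSTA4, an alpha-class transferase gene whose product acts on 4-hydroxynonenal. It was at 31.1 and 31.1 FPKM in the control libraries against 22.7 and 20.9 FPKM in the drug libraries, opposite in direction to GSTP1 (limma adjusted p = 0.00588 for a log2 fold change of -0.49 ± 0.04 SE). The call held in all 11 alternatives.

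In glutathione breakdown 1 of 8 tested genes was called higher and 1 lower (median -0.01). ANPEP, which encodes the aminopeptidase N that splits cysteinylglycine, rose from 81.5 ± 1.94 to 109 ± 2.15 FPKM (limma adjusted p = 0.00381). CHAC1, a cytosolic glutathione-degrading enzyme gene, fell from 7.53 ± 0.280 to 6.12 ± 0.367 FPKM (adjusted p = 0.0403) and was no longer called when any 1 library was dropped (0.149 at the highest over the alternatives).

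Of 8 tested genes of cystine supply and glutathione transport 2 were called lower and none higher (median -0.02). Both drug libraries lay above both control libraries for 2 of the 8 and below them for 3 (40.3% and 23.3% of all tested genes). SLC3A2, among those above, was at 23.8 and 24.6 FPKM in control against 26.7 and 26.5 FPKM in drug libraries (limma adjusted p = 0.052). It is named after its values were seen. SLC7A11, the cystine antiporter gene that supplies cysteine for GCLC and GCLM, fell from 4.92 ± 0.246 to 3.71 ± 0.243 FPKM (limma adjusted p = 0.0321), a call lost on dropping any 1 library and with the replicate number as a block (up to 0.139). ABCC4, an organic anion exporter gene, fell from 20.3 ± 0.789 to 14.8 ± 0.588 FPKM (adjusted p = 0.00804), a call lost without control 2 (0.0509). Of 8 glutaredoxin, glyoxalase and aldehyde enzyme genes 2 were called lower and none higher (median -0.05). The glutaredoxin gene GLRX fell from 11.1 ± 0.309 to 8.89 ± 0.232 FPKM (limma adjusted p = 0.0151), a call lost on dropping any 1 library. ADH5, the glutathione-dependent formaldehyde dehydrogenase gene, fell from 62.8 ± 0.743 to 53.1 ± 1.04 FPKM (limma adjusted p = 0.0108). Its call was lost without control 1, control 2 or drug 2.

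The NRF2 list was mixed, with 2 of 16 tested genes called higher and 2 called lower (median -0.04). TXNRD1, the thioredoxin reductase gene, rose from 70.6 ± 0.910 to 81.3 ± 1.62 FPKM (limma adjusted p = 0.0157), and KEAP1 rose from 21.97 ± 0.598 to 25.9 ± 0.687 FPKM (0.0223). The ferritin light chain gene FTL fell from 6077 ± 24.3 to 4909 ± 4.67 FPKM (0.00784), and the small Maf gene MAFK fell from 22.8 ± 0.561 to 18.6 ± 0.780 FPKM (0.0179). TXNRD1 and KEAP1 were no longer called when any 1 library was dropped, and calls were lost for FTL without control 1 or control 2, and MAFK without control 1, control 2 or drug 1. NFE2L2, the NRF2 gene itself, was at 23.9 ± 0.0149 and 24.3 ± 0.571 FPKM (adjusted p = 0.694), and the sign of its small difference changed with the scaling. NQO1, often read as a marker of NRF2 activity, was at 103 ± 2.00 and 110 ± 1.17 FPKM (adjusted p = 0.0936). HMOX1 was at 59.3 ± 0.484 and 54.6 ± 1.60 FPKM (adjusted p = 0.0693). HMOX1 passed as lower with TMM-scaled FPKM, edgeR and DESeq2 (lowest adjusted p = 0.00912). The control libraries disagreed on SQSTM1 (7.42 and 1.49 FPKM, with 2.59 and 1.95 FPKM in the drug libraries), a gene named after its values were seen.

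**Figure D4:**
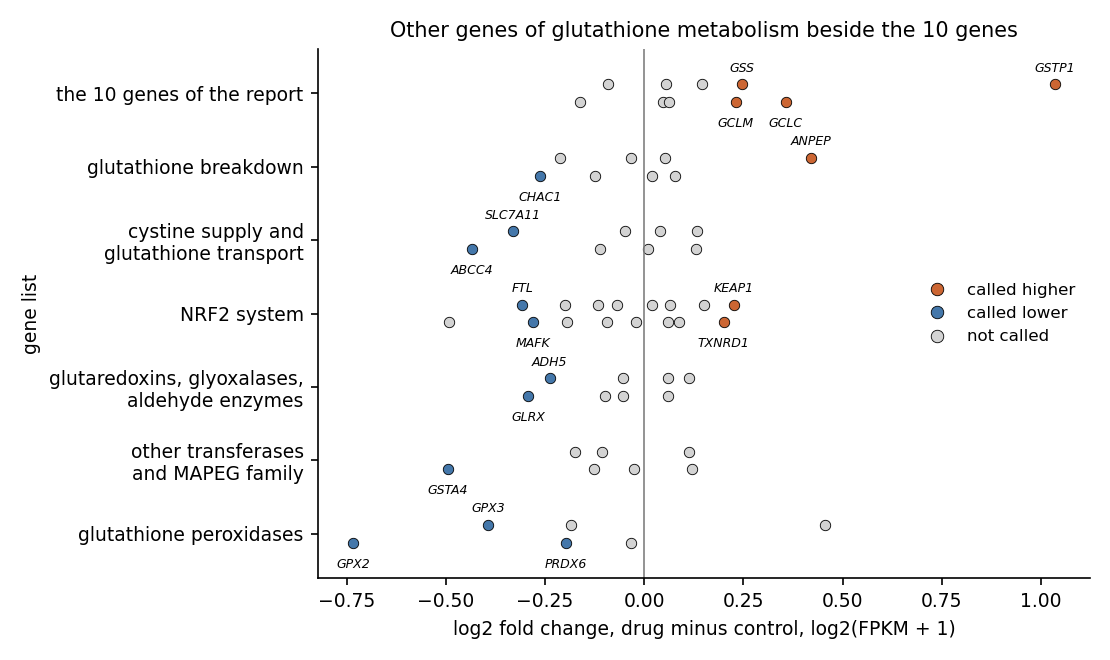
Log2 fold change of drug minus control on the log2(FPKM + 1) scale for each tested gene of 6 glutathione and NRF2 lists and for the 10 genes, coloured by the limma call at an adjusted p under 0.05. The called peroxidase and transferase genes of the lists (GPX2, GPX3, PRDX6 and GSTA4) lie to the left of 0, opposite GSTP1 and the 3 synthesis genes.

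The genes with the profile nearest to GSTP1 over the 4 libraries, by Euclidean distance of centred log2(FPKM + 1) values, were LGR5 (distance 0.0614), a gene with the identifier ENSG00000202343 and no symbol (0.0988) and LOXL4 (0.130). LGR5, an R-spondin receptor gene, was at 3.32 and 3.65 FPKM in the control libraries against 8.14 and 8.21 FPKM in the drug libraries, a ratio of group means of 2.34. LOXL4, a lysyl oxidase family gene, was at 6.96 and 7.62 FPKM in the control libraries against 17.4 and 17.3 FPKM in the drug libraries, a ratio of 2.38. ENSG00000202343 rests on 1 and 2 reads in the control libraries against 10 and 9 reads in the drug libraries, and it passed the filter on low values only through its drug mean of 1.78 FPKM (control mean 0.322 FPKM), so no call is read from it. This likeness depends on the pseudocount, which was varied after seeing the data. With 0.1 FPKM in place of 1 FPKM, LGR5 ranked number 9, LOXL4 number 12 and ENSG00000202343 number 9144 of 11226 genes in likeness to GSTP1. With 0.01 FPKM the ranks were 11, 13 and 10496. Of the 2 annotated genes on each side of GSTP1, only C11orf72 was in the table, with 0 and 10 reads in the control libraries against 6 and 11 reads in the drug libraries.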

How the data were processed

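RNA of 2 control and 2 drug libraries of PLC8024 was extracted with trizol and sequenced with a stranded mRNA kit, per the labels. The submitters' processing notes name bcl2fastq and the build hg38; aligner, counter and test software were not given in the sources used here. Per the file headers, the authors deposited FPKM per library (unit identified from the values), mean normalized read counts per group (a signal of reads divided by a size factor), log2 fold changes, and p-values with adjusted p-values. No per-sample column was left unused.

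Solving FPKM and the group means jointly gave back the reads of each library: 100% of values between 0 and 1000 reads came within 0.1 of a whole number. Genes with a group mean of at least 1 FPKM went into a two-sided limma 3.58.1 trend fit of log2(FPKM + 1), with Benjamini-Hochberg adjustment over all 11227 tested genes, at 0.05. This scale understates changes of low genes. Alternatives were pseudocounts of 0.1 and 0.01, no filter, TMM-scaled FPKM, edgeR 4.0.16 and DESeq2 1.42.0 on recovered reads, blocking on replicate number, and dropping each library in turn; the lone library is then assumed to vary like the other group. Scripts were tested on simulated data. Positions are from GENCODE 29. The 10 genes and all lists were chosen with earlier results of these data known. Named genes were the 10 members, up to 4 called genes per list, 5 references (NFE2L2, KEAP1, NQO1, SLC7A11 and HMOX1), the 3 profiles nearest to GSTP1 and its annotated neighbours. R 4.3.3, Python 3.11.15 and matplotlib 3.10.9 were used.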

Additional observations from a re-analysis of the deposited data

How the results depend on the processing

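Groups of 2 libraries limit every result here. Over all genes 873 were called higher and 676 lower. Calls higher numbered 170 without the filter, 543 with TMM-scaled FPKM and 474 with the replicate block, and calls lower 214 without the filter, 1233 with edgeR and 1109 with DESeq2; the cause was not tested. With 1 library left out there were 115 to 221 higher and 188 to 274 lower. Of the 10 genes 4 were called higher in each of the 7 alternatives that kept all libraries, and 2 to 3 with 1 library left out. None was called lower with FPKM as deposited, 1 (MGST3) with TMM-scaled FPKM and with edgeR, and 2 (MGST1 and MGST3) with DESeq2. Of the list genes 3 were called higher and 11 lower; without the filter these were 1 and 5, with edgeR 3 and 17, and with DESeq2 4 and 17. With 1 library left out 1 was higher and 4 to 6 lower. NFE2L2 changed sign with TMM-scaled FPKM (-0.0195), edgeR (-0.0199), DESeq2 (-0.0199) and without drug 1 (-0.00324), against 0.0429 without drug 2, and passed in none of these. Without the filter calls were also lost for FTL, MAFK, TXNRD1, KEAP1, SLC7A11, GLRX, CHAC1 and PRDX6. By recovered reads, with no scaling for length, GSTP1 was 75.2% of the 6 transferases in control and 86.4% in drug libraries (87.6% and 93.5% by FPKM), GCLM over GCLC was 1.82 and 1.65 (2.88 and 2.62), and GSTP1 over GSTO1 was 17.1 and 33.6 (16.4 and 32.2).

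Libraries with the same replicate number did not deviate together (correlation over 11227 genes 0.0278), so the numbers were not taken as pairs. With the replicate block 474 genes were called higher and 451 lower, 4 of the 10 genes kept a call as higher, and of the genes named SLC7A11 alone lost its call.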

Other observations

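Of the list genes in the table, 10 lay below the filter on low values and entered no test. Only some of them are given here. The alpha-class transferase gene GSTA1 had 10 and 16 reads in control and 2 and 2 reads in drug libraries, and GSTA2 had 7 and 6 reads in control and 2 and 4 reads in drug libraries. The 2 genes are close relatives, so the split of reads between them is uncertain. These genes, and SRXN1 and GSTO2 below, are named after their values were seen. SRXN1, the sulfiredoxin gene and an NRF2 target, had 16 and 18 reads in control and 42 and 46 reads in drug libraries, at 0.222 and 0.184 against 0.412 and 0.470 FPKM. GSTO2, the neighbour and relative of GSTO1, had 23 and 32 reads in control and 40 and 26 reads in drug libraries.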
